A study of Mus musculus with 48 samples.

Results

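Open chromatin is not spread evenly along the genome: some stretches hold many accessible sites a few kilobases apart. In the authors' merged list of ATAC-seq peaks from mouse small cell lung cancer, 20621 of 114043 peaks (18.1%) lay in such dense clusters. A cluster was defined as a chain of at least 8 peaks in which each start lay 12500 bp or less from the next, and 1892 chains met this rule. The rule used peak positions alone and no fitted change. The peaks were called on pools of these same libraries, however, so their positions are not independent of accessibility in them. Another 73229 peaks lay in 23240 chains of 2 to 7 peaks, and 20193 peaks had no neighbor within that distance.

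Dense runs of accessible sites are found where enhancers accumulate around genes that define a cell type (stretch enhancers or super-enhancers), and also where promoters of neighboring genes are packed together. ATAC-seq finds them through the Tn5 transposase, which inserts adapters into accessible DNA. In small cell lung cancer, a neuroendocrine tumor that spreads early to the liver, the transcription factor nuclear factor I/B, encoded by Nfib, is known to promote metastasis and wide chromatin opening. Whether the sites of a cluster change together or one by one is a question that such factors raise. An annotation of the files' own build (mm9) was not used here, so the clusters are given by coordinates and not sorted into enhancers and promoters.

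The animals carried the genotype Trp53-/-;Rb1-/-;p130-/-;R26mG, in which Cre removes the tumor suppressors and turns on a membrane reporter, in every group. In the CMV comparison, 8 Nfib-amplified libraries from Ad-CMV-Cre tumors (5 liver metastases, 1 lymph node metastasis and 2 lung tumors) were set against 7 libraries without the amplification, all of them lung tumors. The CMV promoter that drove Cre is broadly active in cell types. In the CGRP comparison, 7 liver metastases were set against 11 lung tumors of Ad-CGRP-Cre animals, where the promoter of the neuroendocrine peptide CGRP drove Cre. Only the contrast of the 8 and 7 CMV libraries was deposited, without one within lung tumors. Amplification and tissue of origin therefore cannot be told apart in its values. The labels also describe all 8 amplified libraries as hyperaccessible and the other 7 as hypoaccessible, so a general gain of accessibility is part of how the groups were described. In the CGRP groups, the 7 liver metastases and 7 lung tumors came from preparation batch 2 and the other 4 lung tumors from batch 3, and 1 lung tumor was labelled Nfib-amplified. Libraries may share animals or tumors, and p-values then measure a spread that may be technical. Library values and depths are unknown, so each peak below is given by the authors' fitted log2 fold change and its standard error (SE). In bulk tissue, fewer cells of a type and less open chromatin per cell cannot be told apart. A further 15 CMV libraries with low enrichment entered no comparison, although they contributed to the pool of 19 libraries from which CMV summits were called.

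The chains held 8 to 59 peaks (median 10) and spanned 12 to 245 kb (median 43.3 kb). Together they covered 89.4 Mb. Neighboring members had starts 3996 bp apart at the median (quartiles 1660 and 7255 bp), and all merged peaks have the same length. Members were stronger sites, with a median mean normalised count of 27.0, against 21.2 over all merged peaks and 15.6 for peaks without a near neighbor. Chromosome 4 had the highest share of its peaks in dense chains (24.9%), followed by chromosome 11 (22.9%). Chromosome X had the lowest, with 31 members in 3 chains (3.73% of its 831 peaks), and chromosome 19 had 35 members among 315 peaks. The longest stretches between listed neighbors were 92.6 Mb on chromosome X, 50.4 Mb on chromosome 7 and 50 Mb on chromosome 4, and the last listed peak of chromosome 19 ended at 22.0 Mb. The shares are of the listed peaks only.

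In Nfib-amplified CMV libraries, dense clusters shifted less toward gain than the peak set as a whole. Of 20606 tested members, 5466 (26.5%) were more accessible at the authors' adjusted p under 0.05, where 34.3% of all tested peaks were. Another 3721 members (18.1%) were less accessible, where 12.2% of all tested peaks were. The median log2 fold change was 0.16 over members, against 0.60 over all peaks and 1.00 over peaks without a near neighbor. Among raised members the log2 fold change was 2.13 at the median, with a median SE of 0.62, and among lowered members it was -1.50, with a median SE of 0.44. Both shifts stood at like mean count: at the members' deciles of mean count, all peaks had 35.1% raised and 13.7% lowered. Members were raised less often and lowered more often than all peaks in 10 of 10 deciles. Mean counts were averaged over a common set of libraries that the sources do not name. If it includes the compared libraries, they are not independent of the change.

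The split depends on scaling. After 0.60, the median of all tested peaks, was subtracted from every CMV log2 fold change, 2962 members (14.4%) were higher and 7322 (35.5%) lower, against 19.9% and 25.6% of all peaks. Members thus lay below the peak set under both scalings, while the larger of their own counts changed direction. The second deposited test fits, by its values, one against a change of 0.5 either way on the log2 scale. In the CMV comparison it raised 2851 members (13.8%, against 19% of all peaks) and lowered 1454 (7.06%, against 4.64% of all peaks).

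The shift went with the number of peaks in the chain. Peaks in chains of 8 to 9 were raised in 28.6% and lowered in 16.2% of cases. The shares were 26.2% and 18.6% in chains of 10 to 14 peaks. In chains of 15 to 19 they were 23.5% and 20.5%, and in chains of 20 or more they were 23.9% and 19.9%. No step stood at the boundary of the rule: chains of exactly 7 peaks had 30.7% raised and 14.8% lowered, and chains of exactly 8 had 28.4% and 15.5%.

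**Figure D1:**
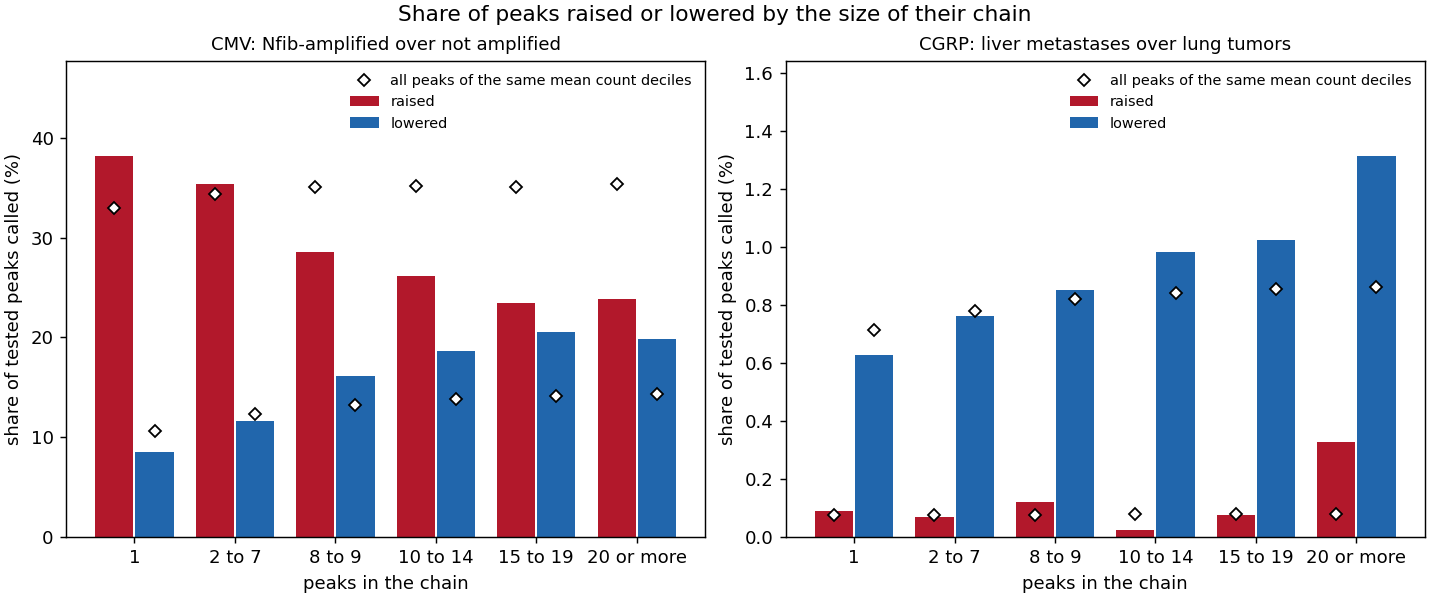
Share of tested peaks called more (red) or less (blue) accessible, in percent, by the number of peaks in their chain, in the CMV comparison (left) and the CGRP comparison (right). Diamonds give the share over all peaks at the same deciles of mean count. In CMV the raised bars fall from 38.2% for single peaks to 23.9% in chains of 20 or more peaks, and the CGRP bars stay under 1.4%.

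In CGRP liver metastases, few members changed, and nearly all of them lost accessibility. Of 20025 members with an adjusted p, 194 (0.969%) were less accessible than in CGRP lung tumors, where 0.779% of all tested peaks were. Another 19 (0.0949%) were more accessible, where 0.0752% of all tested peaks were. Both shares are near those of the whole peak set and are not read as a property of the clusters. At the median, lowered members had -1.52 on the log2 scale, with an SE of 0.36, and raised members had 1.11, with an SE of 0.30. The second deposited test, of the DESeq2 kind, lowered 10 members (0.0485%, against 0.058% of all peaks) and raised 0 (0% of all peaks). In the first test, 2234 of 20621 members had an unadjusted p under 0.05, 626 of them above 0. Over all 114043 merged peaks, 10955 had an unadjusted p under 0.05. The 596 members without an adjusted p were left out of the counts by the first test's adjusted p.

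Many dense clusters held gains and losses side by side, in a share that moved with the threshold. In the CMV comparison, 1766 of the 1892 chains had at least 2 called members, and 1069 of these (60.5%) contained both raised and lowered peaks. The called members of the other 697 (39.5%) all went one way, up in 458 chains and down in 239. The share with one direction was 50.8% in chains of 8 to 9 peaks and 10.8% in chains of 20 or more. It was 77.3% in chains of 2 to 7 peaks, which hold fewer called peaks each, so the shares are not on equal terms. At an adjusted p under 0.01, 757 of 1543 chains with at least 2 calls (49.1%) contained both directions and 786 (50.9%) went one way. After centring, 773 of 1802 chains (42.9%) went one way, 185 up and 588 down. Every peak was raised in 5 chains and every peak was lowered in 2, and 31 chains had no called peak. At least 50% of the peaks were raised in 371 chains and lowered in 144, and after centring in 111 and 551.

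**Figure D2:**
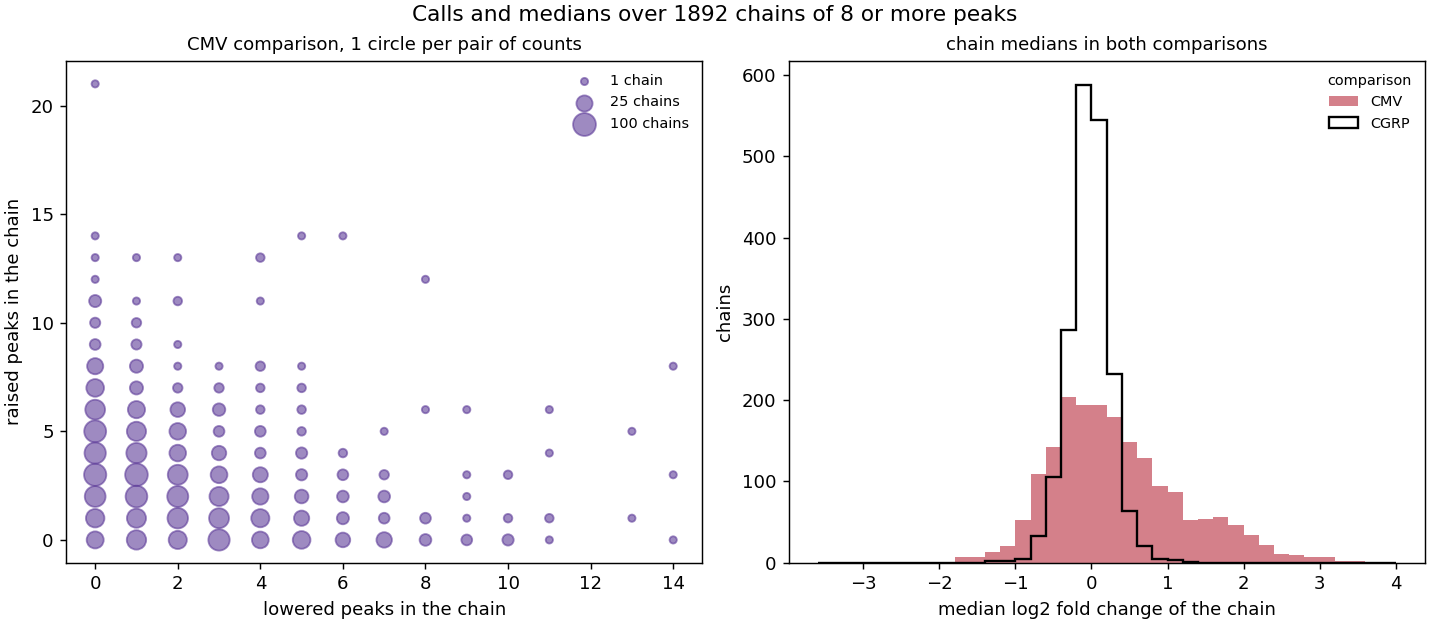
Left, raised against lowered peaks per dense chain in the CMV comparison, with circle area growing with the square root of the number of chains at that pair of counts. Right, histogram of the median log2 fold change of the 1892 chains in the CMV (red) and CGRP (black outline) comparisons. The CMV medians run from -3.50 to 3.83 and the CGRP medians from -1.31 to 1.32, and chains with both kinds of call fill the left panel.

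Membership of a chain accounted for a minor share of the total variance between members, which includes measurement error. Variance components put 21.9% of the variance of CMV log2 fold changes between chains, and 18.6% once each value was taken as its deviation from the median of its mean count decile. Within a chain the SD was 1.38 on the log2 scale, larger than the root mean square SE of 0.56, so members of one chain differed by more than their own error. Grouping the same members by chromosome gave 2.45%. In chains of 2 to 7 peaks the between-chain share was 35.6%. In the CGRP comparison 13.7% of the variance lay between chains, and the SD within a chain (0.56) was close to the root mean square SE (0.53). The SD between chains was 0.22 there, and a share with the error taken out was not computed.

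Agreement between neighbors fell over the first few kilobases and then leveled off. Within dense chains, CMV deviations from the decile median fell on the same side in 70.7% of 2576 neighbor pairs whose starts were up to 1000 bp apart. The share was 65.5% of 2958 pairs at 1000 to 2000 bp, 60.8% of 5440 pairs at 2000 to 5000 bp and 60.3% of 7755 pairs at 5000 to 12500 bp. Neighbors in different chains, 12500 to 25000 bp apart, agreed in 61.8% of 23590 pairs. Pearson's r over the same dense-chain pairs was 0.51, 0.31, 0.20 and 0.20 in order of distance. These correlations run across peaks of the same libraries, and adjacent peaks at the shortest distances can share fragments, so they are descriptions only. In the CGRP comparison the corresponding shares in dense chains were 62.1%, 58.1%, 57.2% and 56.5%.

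**Figure D3:**
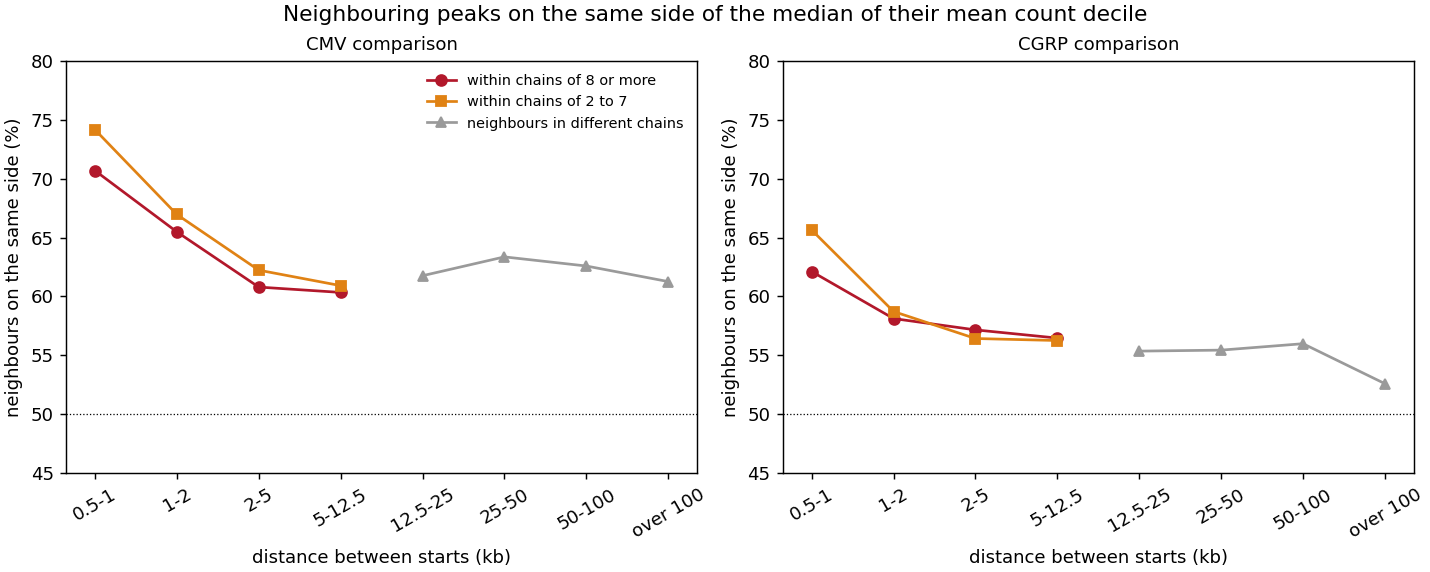
Share of neighboring peaks, in percent, whose log2 fold changes lie on the same side of the median of their mean count decile, by distance between starts in kb, in the CMV (left) and CGRP (right) comparisons. Red circles are pairs within dense chains, orange squares pairs in chains of 2 to 7 peaks, and grey triangles neighbors in different chains. In CMV dense chains the share declines from 70.7% at the shortest distance to 60.3% at the longest, and the dotted line marks 50%.

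Opposite calls at adjacent sites made up a minority of the called pairs in dense chains of the CMV comparison. Both peaks were called in 4035 neighboring pairs, and in 985 of these (24.4%) one was raised and the other lowered. After centring the share was 19.3% of 5063 pairs. Pairs in chains of 2 to 7 peaks had 15.1% opposite calls, but raised and lowered peaks were also less evenly balanced there (25878 and 8495, against 5466 and 3721 among members). Neighbors in different chains had opposite calls in 16.1% of 10818 pairs. These shares were not set against unrelated pairs of called peaks. The opposite pairs in dense chains had starts 4402 bp apart at the median, 198 of them lay within 2000 bp, and the closest were 555 bp apart. In the CGRP comparison 9 neighboring pairs were both called and 0 were opposite.

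The widest opposite step between neighbors was on chromosome 15. Per the authors' deposited table, the peak from 35850969 to 35851469 had a CMV log2 fold change of -3.00 ± 0.68 SE (adjusted p = 9.22e-05). Its neighbor from 35857035 to 35857535, 6066 bp away, had 6.25 ± 0.93 SE (adjusted p = 2.53e-09) per the authors' deposited table. On chromosome 16, the peak from 55813966 to 55814466 had 3.51 ± 0.64 SE and the next one, from 55816366 to 55816866, had -5.15 ± 0.76 SE per the authors' deposited table, only 2400 bp apart. On chromosome 3, a peak from 97013199 to 97013699 at 4.92 ± 0.87 SE adjoined one from 97015093 to 97015593 at -3.56 ± 0.53 SE per the authors' deposited table. These pairs were chosen as the most divergent, so the size of their steps is a description.

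The 10 chains with the most peaks held 393 members, of which 101 (25.7%) were raised and 69 (17.6%) lowered in Nfib-amplified libraries. These shares are near the 26.5% and 18.1% of all members, and 34.3% and 12.2% of all tested peaks were called so. Each of the 10 held both directions, also after centring, when 48 members were higher and 138 lower. Some of these chains then kept only 1 higher member. The counts of each chain below are of the deposited scaling, and the 6 chains with more gains than losses did not keep that lean after centring. The longest was on chromosome 4 from 148108580 to 148353680, with 59 peaks over 245 kb and mean counts from 10.3 to 226. Of its peaks, 14 were raised and 6 lowered (median 0.18 on the log2 scale), and the calls changed direction 7 times along the chain. After centring it held 7 gains and 14 losses. Gains in it were between 0.94 and 4.11 on the log2 scale and losses between -2.41 and -1.17. Its member with the smallest adjusted p, from 148165008 to 148165508, had -2.41 ± 0.44 SE (adjusted p = 1.55e-06) per the authors' deposited table.

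The second largest chain lay on chromosome 9 from 107404413 to 107641637 and had 54 peaks, 8 raised and 14 lowered, with 11 changes of direction along it. This chain held 1 gain and 27 losses after centring, so its mix of directions depended on the scaling. Its leading member was a gain amid losses: the peak from 107561831 to 107562331 had 4.76 ± 0.91 SE (adjusted p = 3.77e-06) per the authors' deposited table. Its strongest site by mean count (280), from 107537564 to 107538064, moved little, at -0.32 ± 0.12 SE (adjusted p = 0.0249) per the authors' deposited table.

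On chromosome 3 from 136303802 to 136497291, 42 peaks held 12 gains and 8 losses, and 7 and 16 after centring. The leading gain there, from 136453355 to 136453855, had 1.5 ± 0.27 SE (adjusted p = 1.03e-06) per the authors' deposited table. On chromosome 12 from 101397564 to 101583938, 41 peaks held 6 gains and 8 losses, and 3 and 20 after centring. In the deposited scaling they were largely sorted by position. The first 7 called peaks were all lowered and the last 5 were all raised. The leading loss, from 101493660 to 101494160, had -2.45 ± 0.44 SE (adjusted p = 9.45e-07) per the authors' deposited table. In the other large chain of chromosome 12, from 5090571 to 5262433, 13 of 35 peaks were raised and 4 lowered (6 and 9 after centring), and the last 7 called peaks were all gains. Its leading gain, from 5230394 to 5230894, had 4.01 ± 0.81 SE (adjusted p = 1.34e-05) per the authors' deposited table.

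The large chains of chromosome 1 had more gains than losses in the deposited scaling. From 166319679 to 166490364, 13 of 33 peaks were raised and 4 lowered, led by a gain of 2.30 ± 0.40 SE (adjusted p = 3.31e-07) from 166423137 to 166423637 per the authors' deposited table. From 195119182 to 195286336, 13 of 33 were raised and 2 lowered, with 12 raised calls in a row. Its leading gain, from 195156367 to 195156867, had 1.63 ± 0.27 SE (adjusted p = 9.34e-08) per the authors' deposited table. After centring the first held 5 gains and 11 losses and the second 8 of each.

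In the remaining large chains the member with the smallest adjusted p was a loss, but the change of largest size was a gain. These gains were 4.73 ± 0.92 SE on chromosome 18 and 5.13 ± 0.85 SE on chromosome 3 per the authors' deposited table. On chromosome 18 from 25779731 to 25892247, 14 of 31 peaks were raised and 5 lowered (5 and 9 after centring), while the member with the smallest adjusted p, from 25848536 to 25849036, had -3.55 ± 0.49 SE (adjusted p = 1.72e-10) per the authors' deposited table. This chain also held 3 members lowered in CGRP liver metastases, at -0.69, -0.75 and -0.69 (SE 0.13, 0.18 and 0.18) per the authors' deposited table. On chromosome 3 from 88210894 to 88368412, 9 of 30 peaks were lowered and 2 raised (15 and 1 after centring). Its leading member, from 88340413 to 88340913, had -4.25 ± 0.45 SE (adjusted p = 7.91e-17) per the authors' deposited table, against 0.21 ± 0.33 SE (adjusted p = 0.910) in CGRP of that table.

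**Figure D4:**
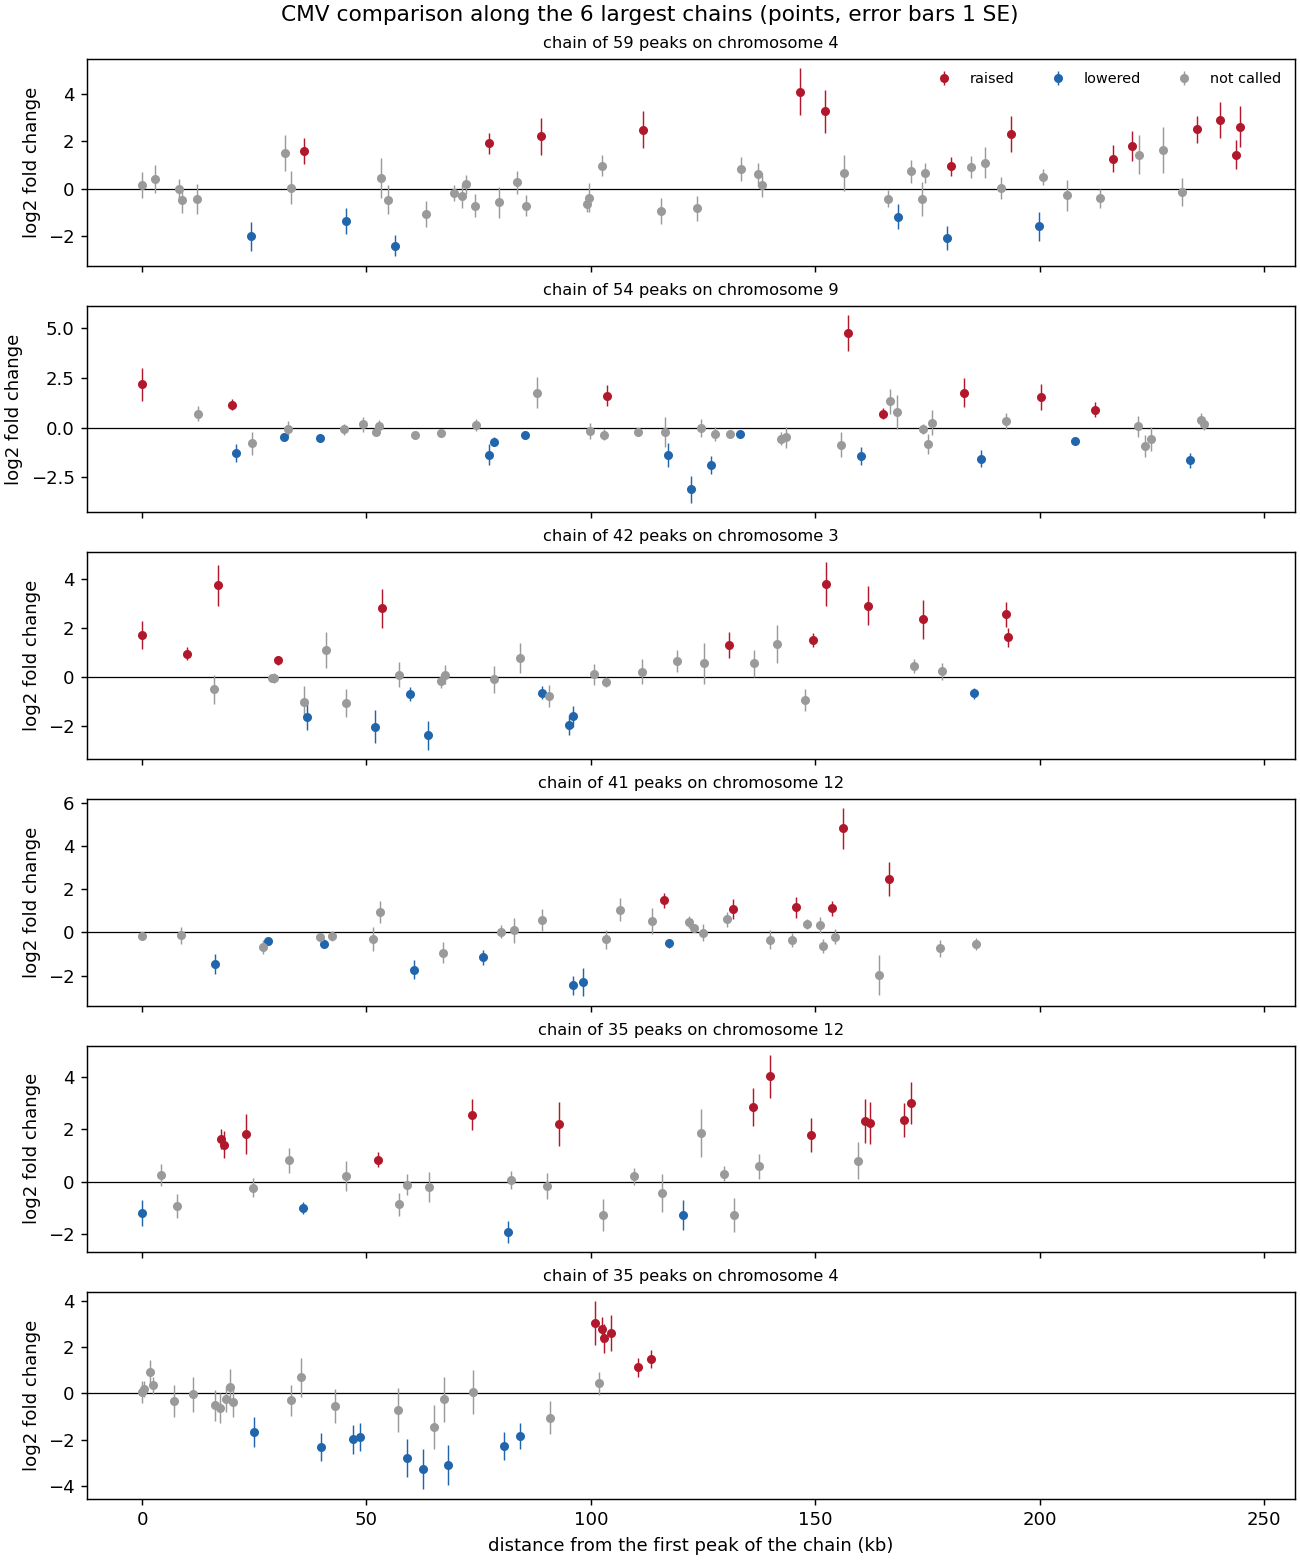
Authors' log2 fold change of each peak in the CMV comparison (Nfib-amplified over not amplified), with error bars of 1 SE, against the distance in kb from the first peak, for the 6 chains with the most peaks. Red points are raised, blue lowered and grey not called. Raised and lowered peaks alternate along the chain of 59 peaks, and in the chain of 35 peaks on chromosome 4 all 9 lowered peaks precede all 6 raised ones.

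The 5 chains with the highest CMV medians had 8 or 9 peaks each, 0 lowered members and at least 1 peak without a call. A choice by extreme median favors chains of few peaks. The highest lay on chromosome 18 from 68697571 to 68750703, with a median log2 fold change of 3.83 and 6 of 8 peaks raised. The next was on chromosome 12 from 53856064 to 53892374 (median 3.55, 8 of 9 raised), followed by chromosome 18 from 45459659 to 45495011 (median 3.47, 7 of 9 raised). Chromosome 16 from 42303556 to 42350617 had 7 of 8 raised (median 3.28), and chromosome 1 from 159437238 to 159467055 had 8 of 9 raised (median 3.20). None of their peaks was called in the CGRP comparison, where the chain medians were between -0.29 and 0.76. With centring, each of the 5 still had at least 5 raised and 0 lowered peaks.

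The lowest CMV median was on chromosome 3 from 92802537 to 92835779, where all 8 peaks were lowered. Their log2 fold changes were between -4.72 and -2.06, with a median of -3.50, and the CGRP median of the chain was -0.21. On chromosome 1 from 187017301 to 187054161, all 9 peaks were lowered (median -2.38), and all 9 were below 0 in the CGRP comparison as well, with 0 called there and a median of -0.55. On chromosome 5 from 145069136 to 145119588, 9 of 10 peaks were lowered (median -2.15), whereas 8 of 10 lay above 0 in the CGRP comparison (median 0.35). The other chains of this end were on chromosome 2 from 103483741 to 103508699 (median -1.73, 5 lowered and 1 raised of 8) and on chromosome 9 from 120425875 to 120456882 (median -1.73, 7 of 9 lowered).

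CGRP losses were scattered over clusters. The 194 lowered members lay in 171 chains: 151 chains held 1, 17 held 2 and 3 held 3. The chains with 3 were on chromosome 12 from 70517716 to 70647066, chromosome 13 from 81066601 to 81159990 and chromosome 18 from 25779731 to 25892247. All 22 chains with at least 2 CGRP calls had them in one direction, 20 down and 2 up. The lowest CGRP median lay on chromosome 1 from 53878772 to 53913452, at -1.31 over 8 peaks, of which 2 were lowered. Per the authors' deposited table, its peak from 53878772 to 53879272 had -2.01 ± 0.46 SE (adjusted p = 0.00524) in CGRP and -3.02 ± 0.55 SE (adjusted p = 1.35e-06) in CMV. The peak after it, from 53880501 to 53881001, had -2.09 ± 0.48 SE in the CGRP comparison and 0.42 ± 0.46 SE in the CMV comparison per the authors' deposited table.

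All 5 of the lowest CGRP medians were in chains with CMV medians above 0, where the median of all peaks was 0.60. The chain on chromosome 1 from 53878772 had a CMV median of 0.59, with 3 raised and 2 lowered peaks. On chromosome 15 from 11062838 to 11128477, the CGRP median was -0.86 with 0 peaks called, and the CMV median was 3.04 with 6 of 9 raised. On chromosome 14 from 116218238 to 116259785 the medians were -1.24 (CGRP) and 1.52 (CMV), on chromosome 2 from 79387566 to 79449178 they were -1.10 (CGRP) and 1.10 (CMV), and on chromosome 1 from 56861240 to 56902748 they were -1.08 (CGRP) and 1.75 (CMV). After centring, CMV gains and losses numbered 5 and 1 in the chain of chromosome 15 and 3 and 0 in that of chromosome 14. They were equal in the other chains, at 4 each on chromosome 2 and 2 each in both chains of chromosome 1. In the chromosome 1 chain from 56861240, the authors' deposited table gave the peak from 56869662 to 56870162 -2.65 ± 0.42 SE (adjusted p = 1.21e-06) as its CGRP log2 fold change and, for CMV, -0.43 ± 0.45 SE (adjusted p = 0.447).

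At the upper end, CGRP medians topped out on chromosome 4 from 149282967 to 149390101 (1.32), chromosome 6 from 53904013 to 53955104 (1.15), chromosome 4 from 149147616 to 149261502 (1.04), chromosome 13 from 103415481 to 103469026 (1.04) and chromosome 3 from 141723663 to 141753247 (0.99). In the first, all 21 peaks were above 0 and 3 were raised. Per the authors' deposited table these 3 had 1.72 ± 0.45 SE, 1.33 ± 0.37 SE and 1.32 ± 0.37 SE, with adjusted p of 0.0262, 0.0407 and 0.0466. The chains on chromosomes 3, 6 and 13 held 0 peaks called in the CGRP comparison.

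The pair of chains on distal chromosome 4 belonged to a longer stretch, chosen for description after its values were seen. The 7 dense chains from 148018089 to 149390101 had CGRP medians from 0.29 to 1.32. Of their 163 peaks, 145 (89.0%) were above 0 in CGRP liver metastases, against 48.0% of all members, although only 4 were called. The 6 dense chains further on, from 150264003 to 151735399, had CGRP medians from -0.37 to 0.25, and 29 of their 59 peaks (49.2%) were above 0. In the CMV comparison the first stretch held 32 raised and 20 lowered of 163 peaks (median 0.27). The second held 0 raised and 29 lowered of 59 (median -1.16). Over all members 26.5% were raised and 18.1% lowered, and over all tested peaks 34.3% and 12.2%. After centring the counts of the stretches were 16 (9.82%) and 30 (18.4%) in the first and 0 and 41 (69.5%) in the second. All tested peaks then had 19.9% raised and 25.6% lowered.

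Within the first stretch, the chain of 35 peaks from 149147616 to 149261502 changed direction once in the CMV comparison. Its 9 lowered peaks lay between 149172639 and 149232282, with log2 fold changes from -3.28 to -1.67 (SE 0.57 to 0.87). Its 6 raised peaks lay between 149248605 and 149261502, with 1.13 to 3.03 (SE 0.37 to 0.95), and 16.3 kb separated the runs. In the CGRP comparison 34 of the 35 peaks were above 0, with values from -0.01 to 1.59 at the lowered peaks and from 0.71 to 1.96 at the raised ones. The highest gain of this chain by significance, from 149250083 to 149250583, had 2.78 ± 0.53 SE (adjusted p = 3.90e-06) in CMV and 1.68 ± 0.48 SE (adjusted p = 0.0528) in CGRP per the authors' deposited table.

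**Figure D5:**
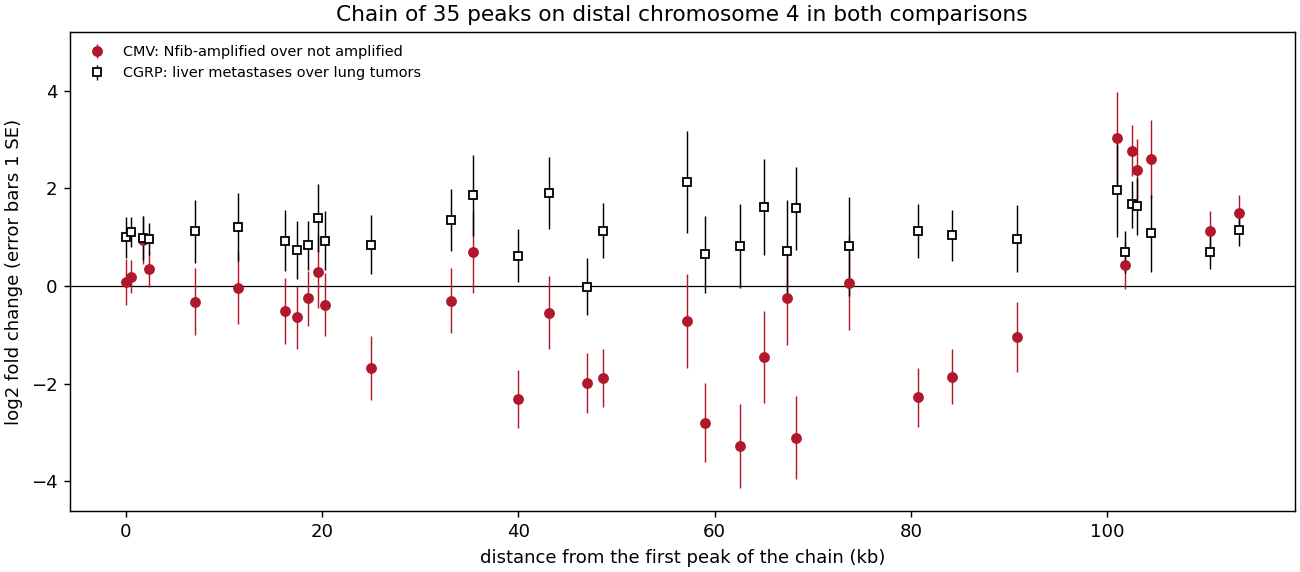
Authors' log2 fold changes, with error bars of 1 SE, along the chain of 35 peaks on distal chromosome 4, against the distance in kb from its first peak. Filled red circles are the CMV comparison (Nfib-amplified over not amplified) and open squares the CGRP comparison (liver metastases over lung tumors). The CMV values drop below 0 in the middle and rise to as much as 3.03 at the right end, while 34 of 35 CGRP values lie above 0.

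Some members were less accessible in both comparisons. Of the 194 lowered CGRP members, 107 (55.2%) were lowered and 15 (7.73%) raised in the CMV comparison, whereas 18.5% and 26.8% of all members tested in both were. These 107 made up 2.89% of the 3704 members lowered in the CMV comparison that were tested in both. Over all lowered CGRP peaks the shares were 46.8% and 10.1%. The lowered CGRP member with the smallest adjusted p was on chromosome 14 from 117760730 to 117761230, with -2.40 ± 0.36 SE per the authors' deposited table (adjusted p = 1.19e-07) in CGRP and -1.73 ± 0.39 SE (adjusted p = 8.84e-05) in CMV. Of the 19 raised CGRP members, 6 were lowered and 3 raised in the CMV comparison. The compared groups share no library, but the mean counts are the same in both comparisons, so normalisation may be shared.

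A direct test of the difference called 4760 of 20606 members (23.1%). The CMV change was higher at 3014 of them (14.6%, against 17.8% of all peaks) and the CGRP change at 1746 (8.47%, against 5.62% of all peaks), by a two-sided z test with Benjamini-Hochberg adjustment over all peaks. With both comparisons centred, the CMV change was higher at 1464 members (7.10%, against 9.12% of all peaks). The CGRP change was then higher at 4563 (22.1%, against 15.9% of all peaks). Which of the changes was the higher thus turned with the scaling.

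Members held summits of the CGRP and mixed pools more often than all merged peaks did, and summits of the CMV pool less often. A summit of the CGRP pool lay within 250 bp of the center of 83.1% of members, against 75% of all merged peaks. A summit of the CMV pool did so for 84.4% of members and 88.6% of all merged peaks, and one of the mixed pool for 92.2% and 89.5%. All 3 pools marked 69.0% of members and 64.8% of all merged peaks. Only 14.4% of members held a CMV-pool summit without a CGRP-pool one, against 22.6% of all merged peaks. The pools differ in vector and preparation batch together, which cannot be told apart. The CMV pool also held 15 low-enrichment libraries among its 19, and the other pools held none. Members also had higher mean counts, for which these shares were not matched.

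Chromosomes differed in how their clusters moved. On chromosome 11, 12.9% of 1486 members were raised and 27.7% lowered in the CMV comparison, where 19.5% and 20.4% of all its peaks were. On chromosome 18, 35.3% of 1081 members were raised and 10.7% lowered, where 41.8% and 6.31% of all its peaks were. On chromosome 5, 19.7% of members were raised and 23.8% lowered, where 24.8% and 19.2% of all its peaks were. On chromosome 10 the members had 19.9% and 24.0%, where all its peaks had 32.0% and 13.4%. Chromosome 19 had 3 raised and 12 lowered (34.3%) among its 35 members, where 22.9% and 13.7% of all its peaks were. Chromosome X had 18 raised (58.1%) and 1 lowered (3.23%) among 31 members, where 46.1% and 3.14% of all its peaks were. After centring, lowered members outnumbered raised ones on each of these chromosomes (205 raised and 254 lowered on chromosome 18) except chromosome X, with 14 raised and 4 lowered. All peaks of chromosome X then had 28.2% raised and 11.9% lowered, and those of chromosome 18 had 24.4% and 14.9%.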

How the data were processed

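ATAC-seq libraries were compared through the authors' deposited peak list and comparison tables. Per the submitters' processing notes, the tools were Bowtie2, MACS2 and DESeq2 on build mm9, with neither role nor version stated. Trimming, duplicate removal, any Tn5 shift of reads, the filter behind the merged list and the covariates of the fits were not given in the sources used here. Per the labels, the authors called summits on pooled libraries, in 3 pools (CMV 19, CGRP 14, mixed 15). The score of the deposited summits is taken to be −log10 of a q-value, as its least value is 1.30. Per the file headers, the deposited tables hold for each peak a mean normalised count (a signal averaged over libraries), the log2 fold change with its SE, the Wald score, and p-values and adjusted p-values. The authors' Wald score equals the log2 fold change over its SE within 5.78e-11. A further set of test columns fits, by its values, a test against 0.5. The direction of each comparison rests on the table names. The mean counts are the same in both comparisons, so they were taken over a common set of libraries, which the sources do not name. With 0 columns for single libraries, library depth is unknown and count models were not run. The description of 1 not amplified CMV library does not list the comparison table.

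Merged peaks were chained by start positions (12500 bp, at least 8 peaks). Members were counted at the authors' adjusted p under 0.05. Agreement was described by one-way variance components and by deviations from the medians of 10 mean count deciles, in place of drawn peaks. The difference of the comparisons was tested per peak (z, Benjamini-Hochberg). Named chains are the 10 with most peaks and the 5 highest and lowest medians of each comparison, and in each of the 10 the member with the smallest CMV adjusted p. Other peaks and the distal chromosome 4 stretch were chosen after their values were seen. Members and lists were chosen with earlier results of these data known. Only another build's annotation was at hand, so genes, the planned gene lists and cell type markers were not analysed here. The chaining, the variance components and the difference test were tested on simulated data. Coordinates are 1-based. Software was matplotlib 3.10.9, scipy 1.17.1, pandas 2.3.3 and numpy 2.4.6 under Python 3.11.15. Alternatives covered thresholds, the second test, a mean count of at least 20, centring, chaining distance, chain size, peak score and summit distance.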

Additional observations from a re-analysis of the deposited data

Results flagged for a closer look

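Summits that the comparisons did not use lay inside the dense clusters. Of 22792 CMV-pool summits within the spans of the chains, 4553 (19.98%) lay in no merged peak, against 61.3% of that pool's summits elsewhere. The median score of these 4553 was 6.41, against 22.7 for summits inside merged peaks of the spans. In the CGRP pool 4209 of 21816 (19.3%) lay in no merged peak (53.2% elsewhere), with a median score of 10.4 against 61.6. In the mixed pool 4538 of 24193 (18.8%) did so (52.6% elsewhere), with a median score of 8.30 against 37.7. The spans were chosen for their many merged peaks, so a lower share of summits outside merged peaks than elsewhere follows from the rule. These summits drew attention because no comparison reports on them, and scores rank summits within a list only. The series holds no input libraries to set them against.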

How the results depend on the processing

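In the CMV comparison, the share of members raised was below that of all peaks and the share lowered above it under each of the 10 alternatives. The counts moved with the definitions. The second deposited test gave 2851 raised and 1454 lowered in CMV, and 0 raised and 10 lowered in CGRP. In the first CGRP test 2234 of 20621 members had an unadjusted p under 0.05, as had 10955 of 114043 merged peaks. Centring gave 2962 raised and 7322 lowered CMV members. A mean count of at least 20 left 3361 raised CMV members (26.0%, against 34.3% of all such peaks). At an adjusted p under 0.01, 786 of 1543 chains with at least 2 CMV calls went one way (50.9%, against 39.5% at 0.05). In CGRP, 2 members were then raised (0.00999%, against 0.0152% of all tested peaks) and 93 lowered (0.464%, against 0.355%). Under 0.1, 54 were raised (0.270%, against 0.219%) and 320 lowered (1.60%, against 1.27%).

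Chaining at 10 kb (11758 members) gave 2927 raised and 2319 lowered CMV members, 9 raised and 114 lowered CGRP members and 411 chains of one direction. Chaining at 15 kb (30978 members) gave 8760 raised CMV and 29 raised CGRP members. Chains of at least 6 peaks (33403 members) gave 9496 raised CMV members, 303 lowered CGRP members and 1637 chains of one direction. Chains of at least 10 peaks (12922 members) gave 3266 raised and 2478 lowered CMV members, 10 raised CGRP members and 281 chains of one direction. Peaks with a score of at least the list median, chained anew (1596 members), gave 334 raised and 417 lowered CMV members, 0 raised (55 above 0 at an unadjusted p under 0.05) and 24 lowered CGRP members and 50 chains of one direction. These counts follow the number of members by construction.

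The between-chain share of variance in CMV was 22.7% with a mean count of at least 20, 20.2% at 10 kb, 22.4% at 15 kb, 23.7% from 6 peaks, 18.6% from 10 peaks and 13.7% with the score minimum. In CGRP the same alternatives gave 19.4%, 13.7%, 12.8%, 14.4%, 13.4% and 11.6%. The leading members of the 10 largest chains kept their calls under each alternative that could be applied to them. They were picked for the smallest adjusted p of their chain, so calls at other thresholds follow from the choice. At 10 kb, 5 of these 10 chains shrank by more than 1.5 times, and with the score minimum all 10 did. No paired analysis was possible because the tables hold no per-library values, and leaving out libraries was not run for the same reason. Depth is unknown, and the SE limits what single peaks can show.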

Other observations

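The strongest site of each cluster was described apart from the rest. The peak with the highest mean count in each of the 1892 chains (median mean count 127) was raised in 26.7% and lowered in 25.4% of cases in the CMV comparison, where all peaks at the same deciles had 28.0% and 22.0%. The other members (median mean count 24.1) were raised in 26.5% and lowered in 17.3% of cases, where all peaks at their deciles had 35.9% and 12.9%. First and last peaks of chains were raised in 29.1% and lowered in 16.2%, and inner peaks in 25.9% and 18.5%. These shares were not tested against each other.

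Opposite changes in the comparisons met in a cluster of 22 peaks on chromosome 5 from 139793158 to 139919516. In the authors' deposited table, its peak from 139820946 to 139821446 had -0.79 ± 0.20 SE (adjusted p = 0.000450) in CMV and 0.61 ± 0.15 SE (adjusted p = 0.0165) in CGRP. A second peak, from 139856251 to 139856751, had -0.88 ± 0.16 SE (adjusted p = 2.06e-06) in the CMV and 0.49 ± 0.13 SE (adjusted p = 0.0278) in CGRP of the authors' deposited table. This cluster is the other of the 2 with at least 2 raised CGRP members, and its peaks were picked after their values were seen.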
